A study of Mus musculus with 27 samples.

Results

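The genes described here are those of DNA replication and S phase entry: the replicative helicase, origin licensing factors, the sliding clamp and its loader, single-strand binding proteins, polymerases and primase, lagging strand enzymes, nucleotide supply, chromatin assembly and checkpoint factors, and G1 to S regulators. The list held 40 genes, of which 39 were measured among 18194 genes, and the remaining gene, Chaf1a, was not analysed here. Each gene was read from its brightest probe set (by the mean of the 27 arrays), as the log2 of its intensity after a floor of 1. Lung RNA was taken from female mice of 3 inbred strains, C57L/J, C57BL/6J and CBA/J, that were 10 to 12 weeks old. The whole thorax had been exposed to X-rays (320 kVp, 67 cGy per minute) at a dose of 0 Gy (sham irradiation), 12.5 Gy or 15 Gy. The right upper lobe was collected 24 hours later. Each of the 9 groups held 3 mice with 1 array per mouse (Affymetrix), and RNA of different mice was not pooled. The labels name no other allele or agent for any group, and the sham mice of each strain served as controls for both doses.

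Cells copy their DNA once per division. In G1 the origin recognition complex, Cdc6 and Cdt1 load the MCM helicase onto origins. Cyclin E with its kinase and the E2F transcription factors then start S phase, in which the helicase unwinds the template, primase and polymerase alpha begin each strand, the clamp loader places Pcna on the new primer, and ribonucleotide reductase supplies the building blocks. Many of these genes are transcribed mainly in late G1 and S phase under E2F control. In adult lung few cells divide at any moment, and ionizing radiation stops the cycle through p53 and its target Cdkn1a. In whole lung RNA, fewer dividing cells and less RNA per cell cannot be told apart.

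Cdkn1a, the p53 target that inhibits cyclin-dependent kinases, lay between 9.68 and 10.35 on the 9 sham arrays and between 12.73 and 13.59 on the 18 irradiated arrays. It rose by 3.16 ± 0.10 on the log2 scale (SE, adjusted p = 4.07e-14, limma over 27 arrays). The proliferation marker Mki67 fell by 2.71 ± 0.35 in the same fit (adjusted p = 1.72e-05). The 10 lung markers (list mean 13.03 to 13.91) were at high levels on all 27 arrays. Some arrays carried transcripts of neighbouring tissue. On 6 arrays the thymocyte gene Rag1 exceeded a log2 intensity of 6. These were replicate 3 at 0 Gy and replicate 3 at 15 Gy in C57L/J, replicates 1 and 3 at 0 Gy in C57BL/6J, and replicate 3 at 0 Gy and replicate 3 at 12.5 Gy in CBA/J. Skeletal muscle transcripts were raised on 9 arrays, 2 of them sham. Thymocytes divide, and values without the high-Rag1 or the muscle arrays are given with the genes below. Without the high-Rag1 arrays 1 sham array of C57BL/6J remained, replicate 2. Without the muscle arrays CBA/J kept 1 array at 0 Gy, the high-Rag1 replicate 3, and 1 at 12.5 Gy. C57BL/6J then kept 1 array at 12.5 Gy and 1 at 15 Gy. A call lost or gained in these sets can rest on 1 array.

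Replication genes were lower in irradiated lung. Over the 3 strains (mean of the 6 irradiated groups minus mean of the 3 sham groups, limma over all 27 arrays), 20 of 39 members were lower (8.49% of all genes tested) and 1 was higher (5.83%), with the threshold for adjusted p (Benjamini-Hochberg) set at 0.05. The median change of the members was -0.39, against -0.01 for all genes, and 34 members had a change below 0, against 52.2% of all genes. With the most variable probe set of each gene in place of the brightest, 9 members were lower and 0 higher. The decline was uneven across the machinery. All 3 G1 to S regulators, all 3 chromatin assembly and checkpoint genes, both single-strand binding genes and both lagging strand genes fell, as did 5 of 10 helicase genes, 2 of 5 licensing genes, 2 of 4 nucleotide supply genes and 1 of 5 polymerase and primase genes. In the clamp and clamp loader group 0 of 5 fell and 1 rose. These are counts at a threshold. The clamp loader gene Rfc5 (-0.24, adjusted p = 0.0532) missed it with a change close to that of Rpa1 (-0.25, adjusted p = 0.00394), which passed.

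**Figure D1:**
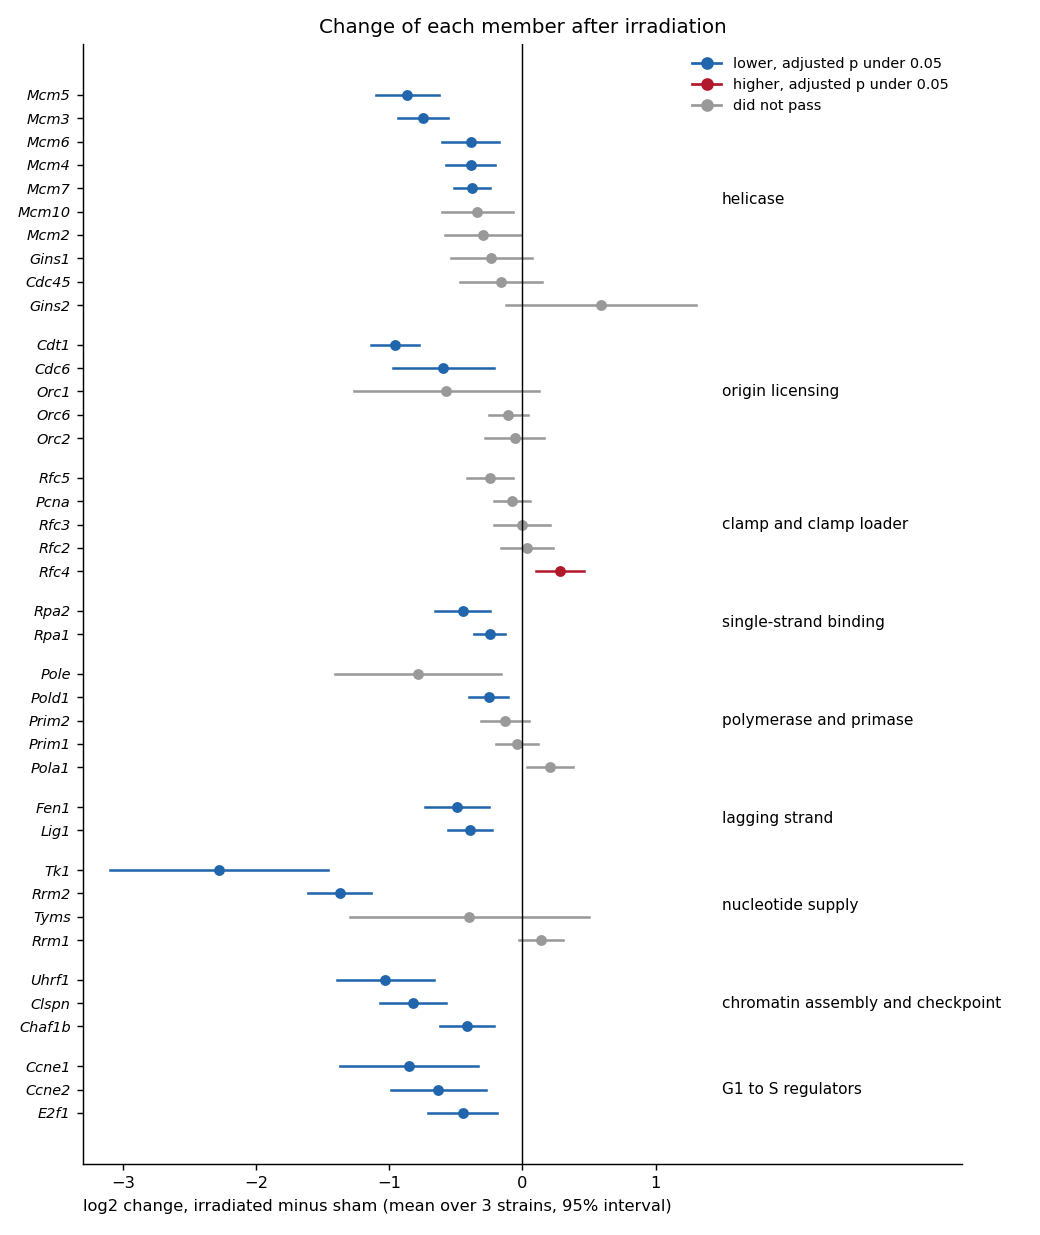
Change of each of the 39 members after irradiation, grouped by role. Points are the log2 change (mean of irradiated groups minus mean of sham groups over 3 strains) and lines the 95% interval of limma; blue marks the 20 genes that were lower and red the 1 gene that was higher at an adjusted p under 0.05. Tk1 and Rrm2 lie farthest to the left, and the clamp and clamp loader genes lie between -0.24 (Rfc5) and 0.28 (Rfc4).

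Rrm2, the regulated small subunit of ribonucleotide reductase, showed the clearest fall. In C57L/J it read 8.28, 8.46 and 8.37 on the sham arrays, 7.19, 7.11 and 7.37 at 12.5 Gy, and 7.15, 7.12 and 7.98 at 15 Gy. In C57BL/6J it read 8.62, 9.17 and 8.88 on the sham arrays, 7.33, 7.43 and 7.23 at 12.5 Gy, and 7.38, 7.65 and 7.43 at 15 Gy. In CBA/J it read 9.39, 8.75 and 9.23 on the sham arrays, 7.43, 7.83 and 7.33 at 12.5 Gy, and 7.34, 7.29 and 7.99 at 15 Gy. Every irradiated array lay below every sham array of its strain, and the 15 Gy array of C57L/J nearest to sham was replicate 3, the array with the highest Rag1. The other irradiated high-Rag1 array, CBA/J replicate 3 at 12.5 Gy, read 7.33, in a range of 7.29 to 7.99 for that strain's irradiated arrays. The change over the 3 strains was -1.37 ± 0.11 (SE, 2.59-fold lower, adjusted p = 5.43e-08). All 3 Rrm2 probe sets fell, by 1.37, 0.80 and 0.57.

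Rrm1, the large subunit of the same enzyme, did not move with Rrm2. Rrm1 ran from 9.02 to 9.60 on the sham arrays and from 8.95 to 10.06 on the irradiated arrays, which overlapped. Its change was 0.14 ± 0.08 (95% interval -0.03 to 0.30, adjusted p = 0.279). A second Rrm1 probe set gave 0.28 ± 0.09. The alternative small subunit Rrm2b, known as a p53 target, changed by 0.11 ± 0.10 (adjusted p = 0.511).

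Tk1, the thymidine kinase of the salvage pathway, had the lowest fitted change of the members. On the sham arrays it lay between 6.16 and 6.96. On the irradiated arrays it lay between 2.12 and 6.59, with a median of 4.55 in C57L/J, 3.98 in C57BL/6J and 5.07 in CBA/J. Within each strain every irradiated array was below every sham array, but in C57L/J the margin was the difference between 6.339 (15 Gy, replicate 3) and 6.343 (0 Gy, replicate 1). The change was -2.28 ± 0.39 (adjusted p = 0.000417). Most irradiated values lay near the bottom of the scale, where log2 differences are wide. With intensities floored at 32 the change was -1.34. Tyms, which makes thymidylate, was the dimmest member (mean 4.84), ran from 3.03 to 5.85 on the sham arrays and from 1.86 to 6.22 on the irradiated arrays, and changed by -0.40 ± 0.43 (adjusted p = 0.603).

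**Figure D2:**
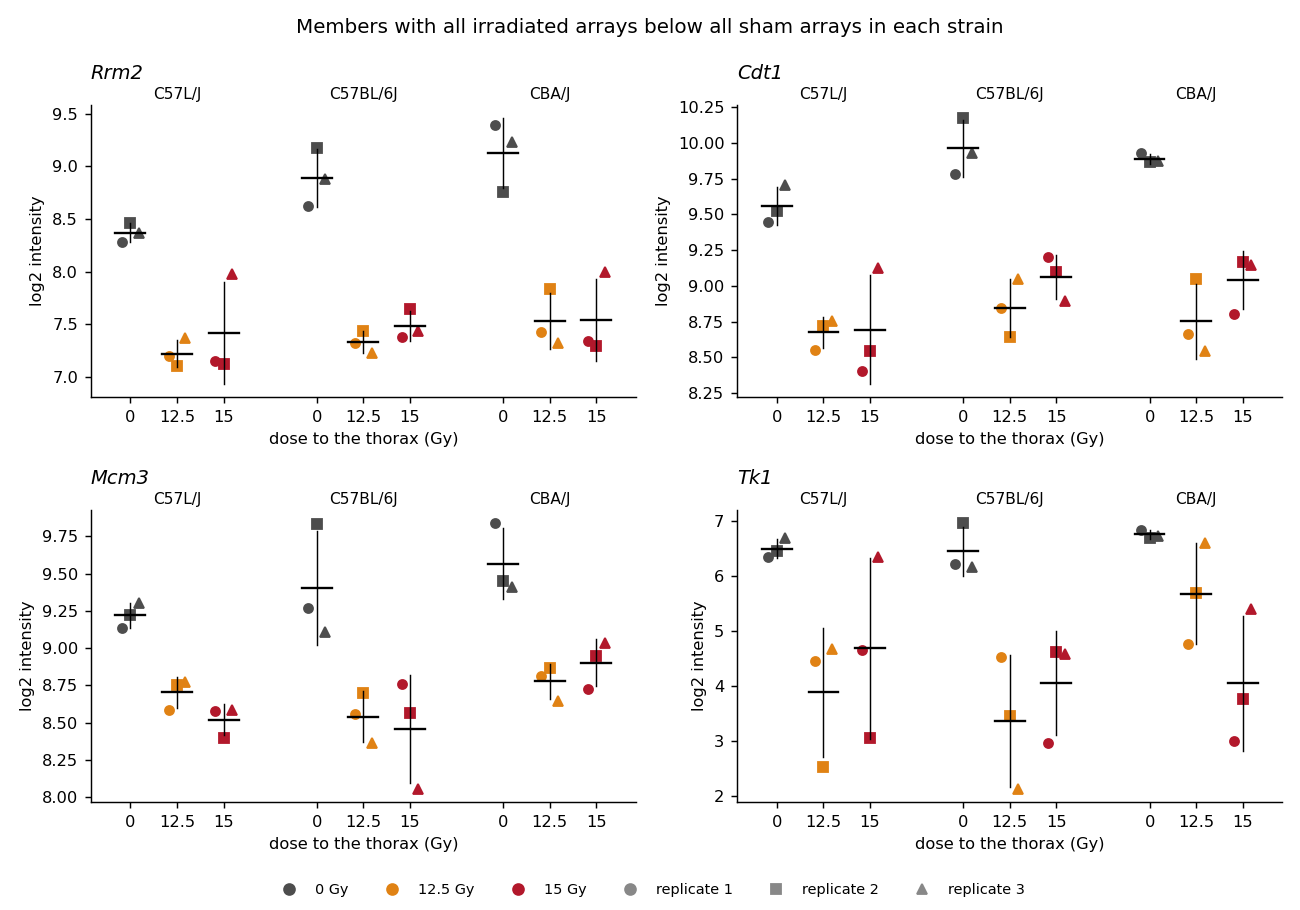
Log2 intensity of Rrm2, Cdt1, Mcm3 and Tk1 on each of the 27 arrays, by strain and dose in Gy; symbols mark the replicate, horizontal lines the group mean and vertical lines 1 SD (n = 3). In each strain all irradiated arrays lie below all sham arrays, and C57L/J replicate 3 at 15 Gy is the irradiated array nearest to the sham level of its strain for Rrm2, Cdt1 and Tk1.

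Of the licensing factors, Cdt1, which recruits the MCM helicase to origins, was the most regular. Its sham values were 9.45, 9.53 and 9.71 in C57L/J, 9.78, 10.18 and 9.93 in C57BL/6J, while CBA/J read 9.93, 9.87 and 9.88. The irradiated arrays ran from 8.41 to 9.13 in C57L/J, from 8.64 to 9.20 in C57BL/6J and from 8.55 to 9.17 in CBA/J. No irradiated array reached the sham range of any strain. Cdt1 fell by 0.96 ± 0.09 (adjusted p = 2.31e-07), and it was lower at p under 0.01 in each of the 6 comparisons of a dose with 0 Gy. Its dimmest probe set (mean 2.74) had the opposite sign, 0.78.

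Cdc6, the ATPase that acts with Cdt1, read 6.44 to 7.10 on the sham arrays and 5.18 to 7.19 on the irradiated arrays. The groups overlapped in C57BL/6J and CBA/J, and in C57L/J all irradiated arrays (5.23 to 6.24) were below the sham arrays (6.44 to 6.79). The change was -0.59 ± 0.18 (adjusted p = 0.033), and 0.0733 without C57L/J 0 Gy replicate 3. Cdc6 gave -0.55 without the 6 high-Rag1 arrays (adjusted p = 0.225), -0.46 without the 9 muscle arrays (adjusted p = 0.196), and an adjusted p of 0.0527 without the 2 irradiated high-Rag1 arrays. The origin recognition subunits gave no call: Orc1 changed by -0.57 ± 0.33, Orc2 by -0.06 ± 0.10 and Orc6 by -0.11 ± 0.07 (adjusted p = 0.284, 0.772 and 0.350).

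Among the subunits of the MCM ring, the helicase core, Mcm5 and Mcm3 changed most. Mcm3 sham values were 9.13, 9.22 and 9.30 in C57L/J, 9.27, 9.83 and 9.11 in C57BL/6J, while CBA/J read 9.84, 9.45 and 9.41. The 6 irradiated arrays ran from 8.40 to 8.77 in C57L/J, from 8.05 to 8.76 in C57BL/6J and from 8.65 to 9.04 in CBA/J, with no overlap within a strain. Mcm3 fell by 0.75 ± 0.09 (adjusted p = 9.23e-06), and all 5 of its probe sets had a change below 0, from -0.34 to -0.97.

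Mcm5 read 9.00, 9.27 and 9.61 on the sham arrays of C57L/J, 9.47, 10.02 and 9.53 on those of C57BL/6J, and 10.07, 9.61 and 9.39 on those of CBA/J. Irradiated arrays ran from 8.25 to 9.32 in C57L/J, from 8.32 to 8.84 in C57BL/6J and from 8.67 to 9.14 in CBA/J. Only the array with the highest Rag1, C57L/J replicate 3 at 15 Gy (9.32), entered the sham range of its strain. That array also carried muscle transcripts. The other irradiated high-Rag1 array, CBA/J replicate 3 at 12.5 Gy, read 8.83. Among its strain's irradiated arrays it was lowest for Cdt1 (8.55) and Mcm3 (8.65) and highest for Tk1 (6.59). Whether Rag1 or muscle transcripts go with these values was not tested. Mcm5 fell by 0.87 ± 0.11 (adjusted p = 2.34e-05). Smaller falls were found for Mcm4 (-0.39 ± 0.09), Mcm6 (-0.39 ± 0.10) and Mcm7 (-0.38 ± 0.06), with adjusted p of 0.00443, 0.0123 and 0.00033. Without the muscle arrays Mcm4 gave -0.18 (adjusted p = 0.226) and Mcm6 -0.33 (adjusted p = 0.0987).

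Mcm2 depended on the probe set. The probe set that stood for Mcm2 gave -0.29 ± 0.14 (adjusted p = 0.167). A dimmer one gave -0.58 ± 0.09 (adjusted p over all probe sets = 0.000216). The helicase partners that convert the MCM ring into the active complex did not pass: Cdc45 changed by -0.16 ± 0.15, Gins1 by -0.23 ± 0.15, Gins2 by 0.59 ± 0.34 and Mcm10, which helps to activate the complex, by -0.34 ± 0.13. The 2 Gins2 probe sets had opposite signs, 0.59 and -0.76, neither of which passed.

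E2F factors bind a short motif in the promoters of many replication genes, so the 250 bases before the annotated start were searched on both strands for TTTCCCGC, TTTCGCGC, TTTGCCGC and TTTGGCGC, the 4 spellings of the E2F motif used here, and for CCAAT. A promoter was found for 32 of the 39 members in the RefSeq table (GRCm38.p6, the first listed start of each gene). An E2F motif was present in 7 of these 32 (21.9%), against 2.8% of 14453 measured genes with a promoter. Among the 18 members with a promoter that were lower 4 held it (22.2%), and among the other 14 members 3 did (21.4%). CCAAT was present in 59.4% of the members and 35.7% of the measured genes. Among the 18 lower members 9 held CCAAT (50.0%), and among the other 14 members 10 did (71.4%). The 4 promoters of lower members that hold the E2F motif, and that of Pola1, which holds it and was not lower, are shown 5′ to 3′ with the motif in capitals (adjacent matches on opposite strands overlap and appear as 1 longer run). Matches are descriptions of the letters and not of binding.
Mcm5, chr8:75109259-75109508, plus strand: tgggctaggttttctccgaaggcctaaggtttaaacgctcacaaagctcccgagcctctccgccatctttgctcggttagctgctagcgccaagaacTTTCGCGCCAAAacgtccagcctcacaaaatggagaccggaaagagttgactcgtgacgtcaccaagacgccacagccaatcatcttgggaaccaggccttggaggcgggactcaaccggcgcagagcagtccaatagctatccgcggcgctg
Mcm6, chr1:128359706-128359955, minus strand: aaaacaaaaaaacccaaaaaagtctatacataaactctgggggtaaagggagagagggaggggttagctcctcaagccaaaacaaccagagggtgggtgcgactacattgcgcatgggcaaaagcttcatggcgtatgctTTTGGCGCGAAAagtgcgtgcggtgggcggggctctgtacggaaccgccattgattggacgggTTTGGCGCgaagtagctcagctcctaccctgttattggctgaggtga
Mcm7, chr5:138171884-138172133, minus strand: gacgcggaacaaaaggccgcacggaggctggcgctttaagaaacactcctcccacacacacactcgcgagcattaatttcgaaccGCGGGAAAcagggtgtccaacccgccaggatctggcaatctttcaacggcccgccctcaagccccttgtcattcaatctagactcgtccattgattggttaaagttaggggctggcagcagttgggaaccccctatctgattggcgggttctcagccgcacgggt
Cdc6, chr11:98907901-98908150, plus strand: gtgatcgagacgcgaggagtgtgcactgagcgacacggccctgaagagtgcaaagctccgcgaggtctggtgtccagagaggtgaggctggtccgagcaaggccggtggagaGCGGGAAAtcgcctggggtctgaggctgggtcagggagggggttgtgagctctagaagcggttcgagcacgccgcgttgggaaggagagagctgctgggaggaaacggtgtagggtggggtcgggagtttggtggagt
Pola1, chrX:93632156-93632405, minus strand: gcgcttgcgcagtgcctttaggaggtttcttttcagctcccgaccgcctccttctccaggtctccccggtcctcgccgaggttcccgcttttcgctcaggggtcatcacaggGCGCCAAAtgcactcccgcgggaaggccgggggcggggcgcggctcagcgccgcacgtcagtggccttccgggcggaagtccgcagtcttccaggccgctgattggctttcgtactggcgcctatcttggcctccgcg

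Both genes that promote S phase entry through cyclin-dependent kinase 2, Ccne1 and Ccne2, fell. Ccne1 ran from 6.69 to 7.45 on the sham arrays and from 3.38 to 6.90 on the irradiated arrays, the lowest being C57L/J replicate 1 at 12.5 Gy. In C57L/J and C57BL/6J the irradiated arrays were all below the sham arrays, and in CBA/J they overlapped. Ccne1 fell by 0.85 ± 0.25 (adjusted p = 0.0253) and by 0.76 with intensities floored at 32. Ccne1 gave -0.79 without the 6 high-Rag1 arrays (adjusted p = 0.215) and -0.83 without the 9 muscle arrays (adjusted p = 0.267), close to the value over all arrays but short of the threshold. Ccne2 ran from 6.51 to 7.79 on the sham arrays and from 5.41 to 7.13 on the irradiated arrays, and fell by 0.63 ± 0.17 (adjusted p = 0.0157), with no overlap within C57BL/6J. Without the same sets of arrays Ccne2 gave -0.70 (adjusted p = 0.0626) and -0.56 (adjusted p = 0.135). The transcription factor gene E2f1 fell by 0.45 ± 0.12 (adjusted p = 0.0185), and gave -0.36 without the muscle arrays (adjusted p = 0.252).

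Uhrf1 maintains DNA methylation through replication. Its sham values were 6.70, 7.03 and 6.64 in C57L/J, 6.64, 7.62 and 7.10 in C57BL/6J, while CBA/J read 7.85, 6.91 and 7.82. Irradiated arrays ran from 5.64 to 7.20 in C57L/J, from 5.68 to 6.47 in C57BL/6J and from 5.81 to 6.65 in CBA/J. The C57L/J array at 7.20 was again replicate 3 at 15 Gy, and the other C57L/J irradiated arrays were below the sham arrays. Uhrf1 fell by 1.03 ± 0.17 (adjusted p = 0.000372), and its second probe set fell as well (-1.26).

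Clspn, the checkpoint adaptor claspin, read 6.51 to 7.32 on the sham arrays and 5.46 to 6.58 on the irradiated arrays. All irradiated arrays of C57BL/6J and CBA/J were below their sham arrays, and in C57L/J 1 array (replicate 3 at 15 Gy, 6.58) was above 1 sham array. Clspn fell by 0.82 ± 0.12 (adjusted p = 7.21e-05). Chaf1b, a subunit of chromatin assembly factor 1, fell by 0.42 ± 0.10 (adjusted p = 0.0057). A second Chaf1b probe set had the opposite sign (0.53).

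Among the genes that act at the fork, 5 fell. The single-strand binding genes Rpa2 and Rpa1 fell by 0.45 ± 0.10 and 0.25 ± 0.05 (adjusted p = 0.00388 and 0.00394). The lagging strand genes Fen1, the flap endonuclease, and Lig1, the ligase that joins the fragments, fell by 0.49 ± 0.11 and 0.39 ± 0.08 (adjusted p = 0.00582 and 0.00172). Pold1, the catalytic subunit of polymerase delta, fell by 0.25 ± 0.07 (adjusted p = 0.0193). Without the muscle arrays Fen1 gave -0.48 (adjusted p = 0.118) and Pold1 -0.30 (adjusted p = 0.0676). Pole, that of polymerase epsilon, gave -0.79 ± 0.30 (adjusted p = 0.0866), with no overlap between irradiated and sham arrays in C57L/J and C57BL/6J and 1 array at 2.36 (C57BL/6J replicate 3 at 12.5 Gy). Pole passed with intensities floored at 32 (-0.64, adjusted p = 0.00883). It gave -1.46 without the muscle arrays, where the array at 2.36 alone stood for C57BL/6J at 12.5 Gy. That set also held 1 array each in C57BL/6J at 15 Gy and in CBA/J at 0 and 12.5 Gy. How far the array at 2.36 drove the value of -1.46 was not tested. The primase genes Prim1 and Prim2 gave -0.04 ± 0.08 and -0.13 ± 0.09 (adjusted p = 0.785 and 0.359).

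A few members stood against the general direction. Rfc4, a clamp loader subunit, read 7.76, 8.05 and 8.05 on the sham arrays of C57L/J, 7.85, 7.86 and 8.28 on those of C57BL/6J, and 8.44, 8.31 and 7.76 on those of CBA/J. Irradiated arrays ran from 7.94 to 8.41 in C57L/J, from 7.99 to 8.64 in C57BL/6J and from 8.33 to 8.81 in CBA/J, and they overlapped the sham arrays in each strain. The change was 0.28 ± 0.09 (adjusted p = 0.0304), and the adjusted p was 0.0795 without CBA/J 0 Gy replicate 3. Rfc4 gave 0.27 without the high-Rag1 arrays (adjusted p = 0.0863) and 0.32 without the muscle arrays (adjusted p = 0.0733), and it passed in 7 of 13 settings. Its second probe set gave 0.14 ± 0.10.

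Pola1, the catalytic subunit of polymerase alpha, gave 0.21 ± 0.08 (adjusted p = 0.109), with an unadjusted p under 0.05. Without the high-Rag1 arrays Pola1 gave 0.35, with only replicate 2 (7.49, the lowest) left of the C57BL/6J sham arrays. In C57L/J its sham arrays read 7.89, 7.71 and 7.92, below the 6 irradiated arrays (8.01 to 8.31). In C57BL/6J (7.49 to 8.18 sham, 8.04 to 8.30 irradiated) and CBA/J (8.06 to 8.36 sham, 7.87 to 8.77 irradiated) the arrays overlapped. Rfc2 and Rfc3 gave 0.03 ± 0.09 and 0.00 ± 0.10.

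Pcna, the sliding clamp that also serves DNA repair and is a known p53 target, was the brightest member (mean 11.80). It read 11.78, 11.84 and 11.85 on the sham arrays of C57L/J, 11.64, 11.75 and 11.85 on those of C57BL/6J, and 12.10, 12.06 and 11.85 on those of CBA/J. Irradiated arrays ran from 11.55 to 11.91, from 11.38 to 11.66 and from 11.49 to 12.26 in the same order of strains, and they overlapped the sham arrays in each. The change was -0.08 ± 0.06, with a 95% interval from -0.21 to 0.05 (adjusted p = 0.465), which lies above the interval of Rrm2 (-1.61 to -1.14).

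**Figure D3:**
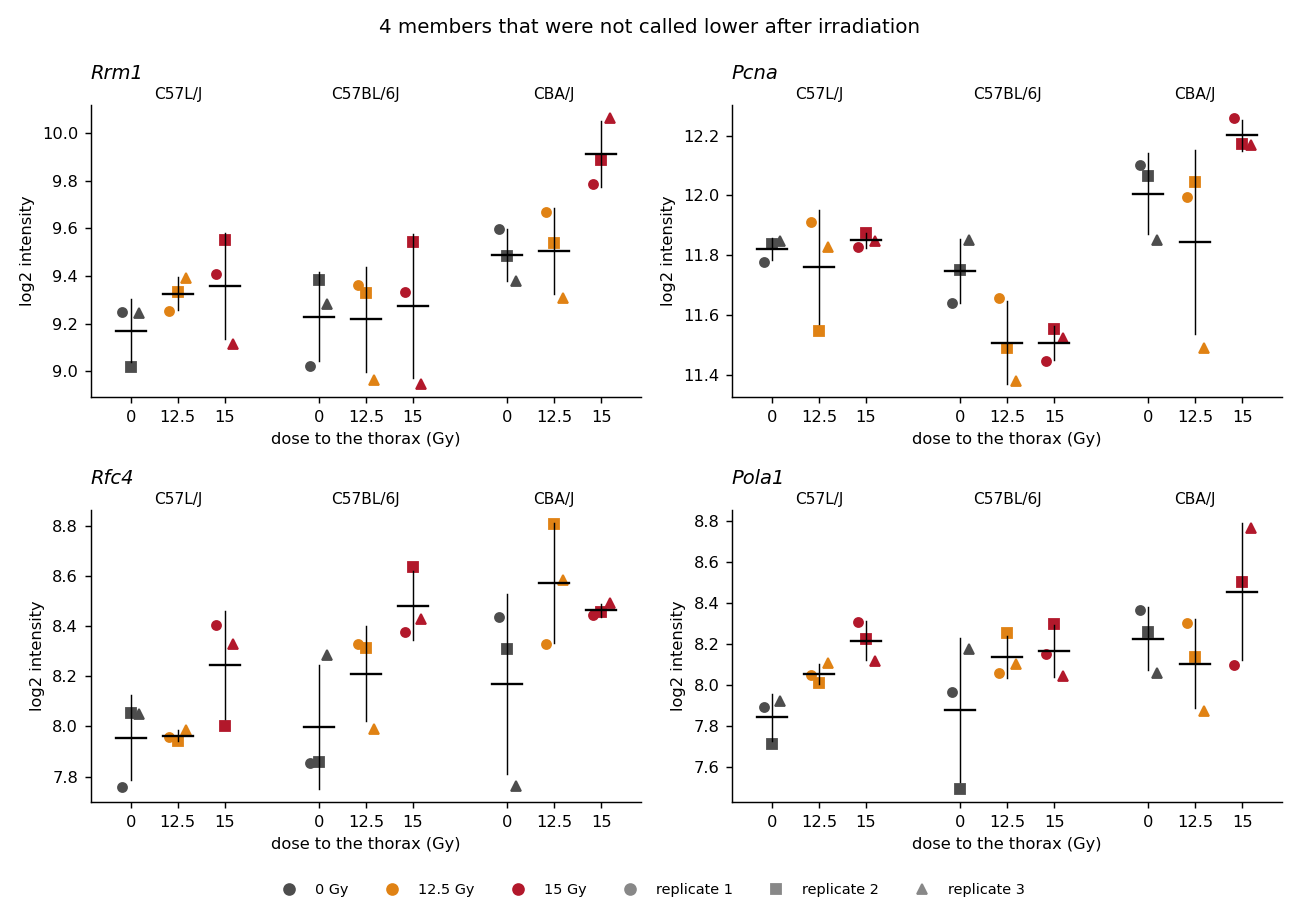
Log2 intensity of Rrm1, Pcna, Rfc4 and Pola1 on each of the 27 arrays, by strain and dose in Gy; symbols mark the replicate, horizontal lines the group mean and vertical lines 1 SD (n = 3). Sham and irradiated arrays overlap in every strain, except for Pola1 in C57L/J, where the 3 sham arrays lie lowest.

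Each dose was next compared with 0 Gy within each strain, using limma on the 6 arrays of the pair and p under 0.01. The threshold is that of the study's methods, where it was applied to a random variance t test. C57L/J had 9 lower members at 12.5 Gy (2.85% of all genes) and 5 at 15 Gy (1.08%). C57BL/6J had 9 at 12.5 Gy (2.67%) and 7 at 15 Gy (2.22%). CBA/J had 5 at 12.5 Gy (2.34%) and 7 at 15 Gy (3.2%). No member was higher in any of the 6 comparisons. Of all genes, 1.68% and 0.786% were higher in C57L/J at 12.5 and 15 Gy, 0.978% and 1.59% in C57BL/6J, and 0.94% and 2.41% in CBA/J. The comparisons of a strain share its sham arrays. In all, 17 members were lower at p under 0.01 in at least 1 comparison, Cdt1 in 6, Mcm3 and Rrm2 in 5, and Tk1 in 4, and 22 members had a change below 0 in all 6.

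After Benjamini-Hochberg adjustment over all genes in these 6-array fits, Rrm2 was the single member under 0.05. It changed by -1.15 ± 0.11 in C57L/J at 12.5 Gy (adjusted p = 0.0394, 0.324% of all genes lower) and by -1.56 ± 0.18 in C57BL/6J at 12.5 Gy (adjusted p = 0.0387, 0.363% lower). With 0 members under 0.05, the other comparisons had 0% (C57L/J, 15 Gy), 0.022% (C57BL/6J, 15 Gy), 0.022% (CBA/J, 12.5 Gy) and 0.588% (CBA/J, 15 Gy) of all genes lower. In the other 4 comparisons Rrm2 changed by -0.95 ± 0.27 (C57L/J, 15 Gy), -1.40 ± 0.18 (C57BL/6J, 15 Gy), -1.60 ± 0.24 (CBA/J, 12.5 Gy) and -1.58 ± 0.27 (CBA/J, 15 Gy). The count in C57L/J at 15 Gy depended on single arrays: it was 8 without replicate 3 of that group, which carried thymocyte and muscle transcripts, and 0 without C57L/J 0 Gy replicate 2.

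**Figure D4:**
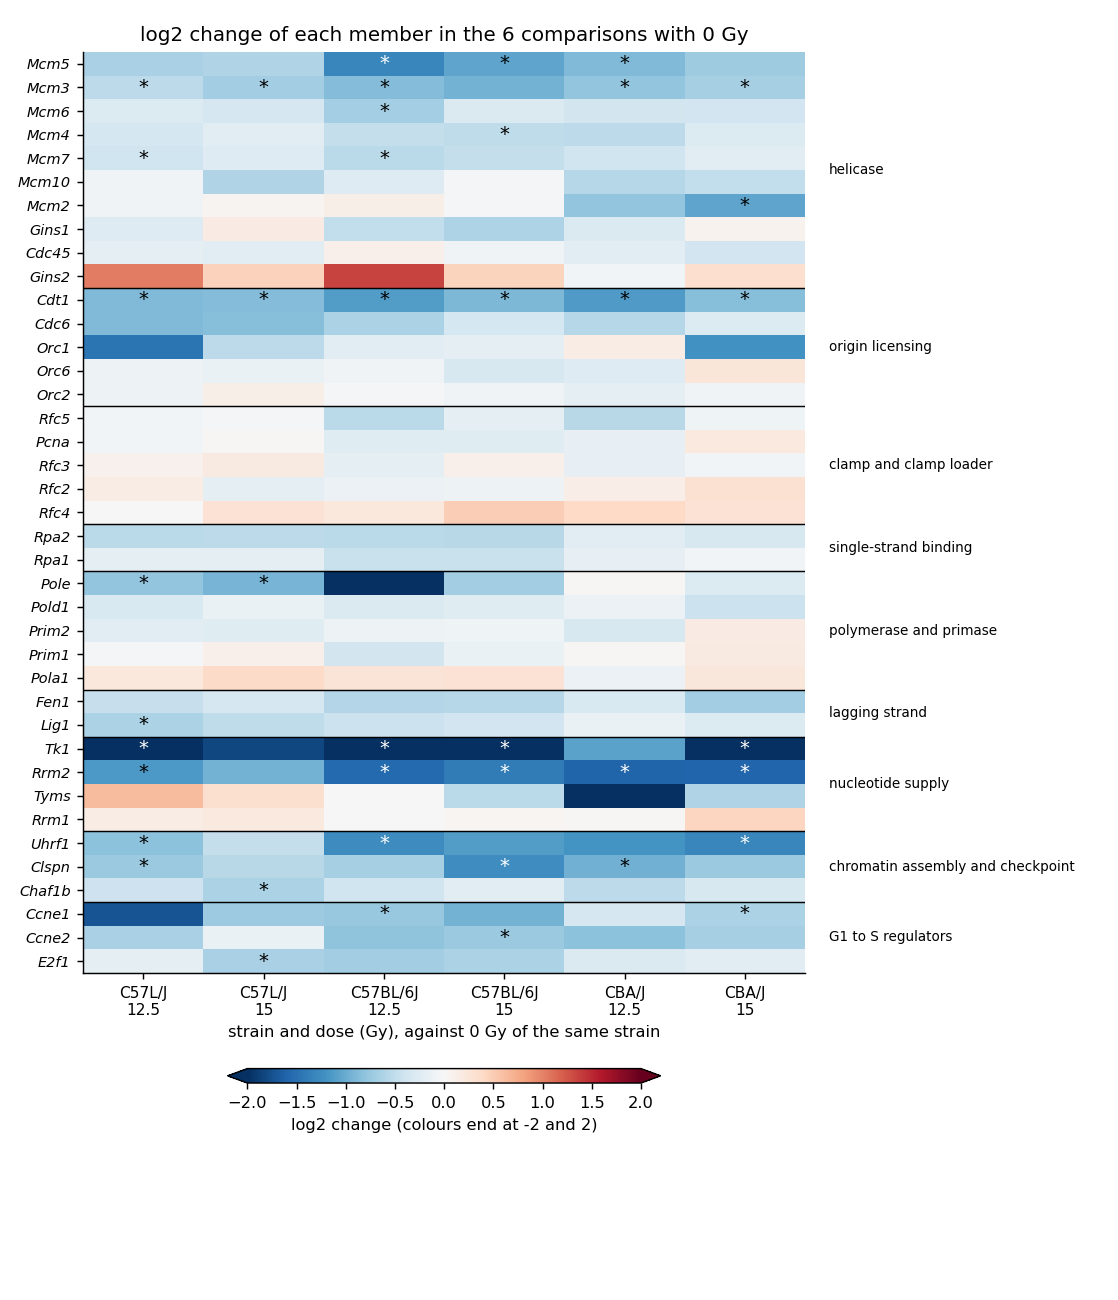
Log2 change of the 39 members in each of the 6 comparisons of a dose (12.5 or 15 Gy) with 0 Gy of the same strain, grouped by role; blue is lower, red is higher, colours end at -2 and 2, and stars mark p under 0.01 in limma on 6 arrays. Cdt1 carries a star in all 6 columns and no red cell carries one.

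Counted by arrays, all 6 irradiated arrays lay below all 3 sham arrays for 12 members in C57L/J (4.85% of all genes), 18 in C57BL/6J (7.23%) and 8 in CBA/J (5.85%). In every strain at once this held for 4 members, Rrm2, Cdt1, Mcm3 and Tk1 (1.2% of all genes). The reverse in every strain at once held for 0 members (0.5%). A fitted change below 0 in each of the 3 strains was found for 27 members (25.6% of all genes). The reverse order was found for 1 member in C57L/J, Pola1 (4.07%), and for none in C57BL/6J (3.55%) or CBA/J (4.05%). In the fit over 27 arrays 4 members were lower at an adjusted p under 0.05 in C57L/J (1.26%), 9 in C57BL/6J (2.51%) and 7 in CBA/J (2.32%). These counts do not show that the strains differ, since the difference was tested separately.

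That test, an F test of strain by irradiation, gave no member at p under 0.01 (1.39% of all genes). Mcm2 had the lowest p (0.0145, adjusted p = 0.77). In CBA/J Mcm2 read 9.95, 9.16 and 9.61 on the sham arrays and 8.39 to 9.01 on the irradiated arrays, with no overlap. In C57L/J (8.65 to 9.00 sham, 8.44 to 9.32 irradiated) and C57BL/6J (8.76 to 9.23 sham, 8.47 to 9.67 irradiated) the arrays overlapped. Its change was -0.92 ± 0.24 in CBA/J, -0.01 ± 0.24 in C57L/J and 0.04 ± 0.24 in C57BL/6J.

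The doses of 12.5 and 15 Gy differed little. Over the 3 strains 1 member, the clamp loader subunit Rfc5, was higher at 15 Gy than at 12.5 Gy at p under 0.01 (0.572% of all genes) and none was lower. Rfc5 read 7.86, 7.93 and 7.93 at 12.5 Gy and 7.98, 7.77 and 7.98 at 15 Gy in C57L/J, and 7.26, 7.93 and 7.30 at 12.5 Gy and 8.02, 8.05 and 7.52 at 15 Gy in C57BL/6J. In CBA/J it read 7.51, 7.84 and 7.55 at 12.5 Gy and 8.01, 8.11 and 8.18 at 15 Gy, the one strain without overlap. The difference was 0.28 ± 0.09 (adjusted p = 0.999). Against sham, Rfc5 changed by -0.24 ± 0.08 (adjusted p = 0.0532). Rfc5 gave -0.36 without the muscle arrays. That set held 1 array each in CBA/J at 0 and 12.5 Gy and in C57BL/6J at 12.5 and 15 Gy. For Rrm2 the interval of the difference between doses ran from -0.15 to 0.39 and for Cdt1 from -0.03 to 0.39. The median difference over the members was 0.11, against 0.01 for all genes, and 0 members passed an adjusted p of 0.05.

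In sham lung 2 of 39 members had p under 0.01 in the F test over the 3 strains, no more than the share of all genes (6.71%), and 0 had an adjusted p under 0.05 (4.17%). The values of the 4 members with the lowest p are given as a description. Every CBA/J sham array carried neighbouring tissue: muscle transcripts in replicates 1 and 2, high Rag1 in replicate 3. Orc2 read 7.78, 8.42 and 7.73 in C57L/J, 8.05, 7.84 and 8.16 in C57BL/6J, while CBA/J read 8.75, 8.53 and 8.71 (adjusted p = 0.104). It was highest in CBA/J, by 0.68 ± 0.21 over C57L/J, with no overlap. Rrm2 (adjusted p = 0.148) was higher in CBA/J than in C57L/J by 0.76 ± 0.23, while C57BL/6J and CBA/J overlapped. Next came Mcm2 (adjusted p = 0.27), highest in CBA/J, and Orc6 (adjusted p = 0.274), lowest there (8.08, 8.25 and 7.99 against 8.30 to 8.66 in C57L/J and 8.31 to 8.56 in C57BL/6J).

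Other genes of replication and S phase control were read in the same fit. Of 65 measured, 17 were lower at an adjusted p under 0.05 (26.2%, against 8.49% of all genes) and 4 were higher (6.15%, against 5.83%, close to the background), and their median change was -0.12. The lowest p among those lower belonged to cyclin A2 (Ccna2, -0.95 ± 0.15), Atad5, which unloads Pcna (-0.52 ± 0.08), the cohesin acetyltransferase gene Esco2 (-1.92 ± 0.34) and the G1 kinase gene Cdk6 (-0.36 ± 0.07). Esco2 read 4.63 to 5.41 on the sham arrays and 0.63 to 4.60 on the irradiated arrays, all near the bottom of the scale. The 4 that rose were the polymerase epsilon accessory subunit gene Pole4 (0.34 ± 0.07), the retinoblastoma family genes Rbl2 (0.31 ± 0.06) and Rb1 (0.30 ± 0.07), and Mcm8, a helicase of recombination (0.27 ± 0.07).

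Averaged over the 39 members, the log2 level lay between 8.06 and 8.45 on the 9 sham arrays and between 7.59 and 8.001 on the 18 irradiated arrays, without overlap. Other gene lists were read on the same arrays, and 8.49% of all genes were lower and 5.83% higher. Division markers fell for 10 of 11 genes (list mean 6.95 to 7.74 sham, 5.69 to 6.82 irradiated). B cell markers fell for 8 of 9 genes (8.57 to 9.32 sham, 6.42 to 8.47 irradiated) and T cell markers for 5 of 7 (7.33 to 8.27 sham, 6.27 to 9.28 irradiated). Thymocyte markers fell for 1 of 7, with ranges that overlapped (5.17 to 7.08 sham, 4.15 to 8.47 irradiated), and erythroid precursor markers for 2 of 6 (5.88 to 7.18 sham, 5.29 to 6.50 irradiated). The p53 targets rose for 9 of 9, and 0 of 10 muscle and 0 of 10 lung markers passed. All 10 muscle markers still had a change above 0, with a median of 1.43, against -0.09 for lung markers. Of the 9 muscle arrays 7 were irradiated. The part of these cell types in the fall of the replication genes was not tested.

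**Figure D5:**
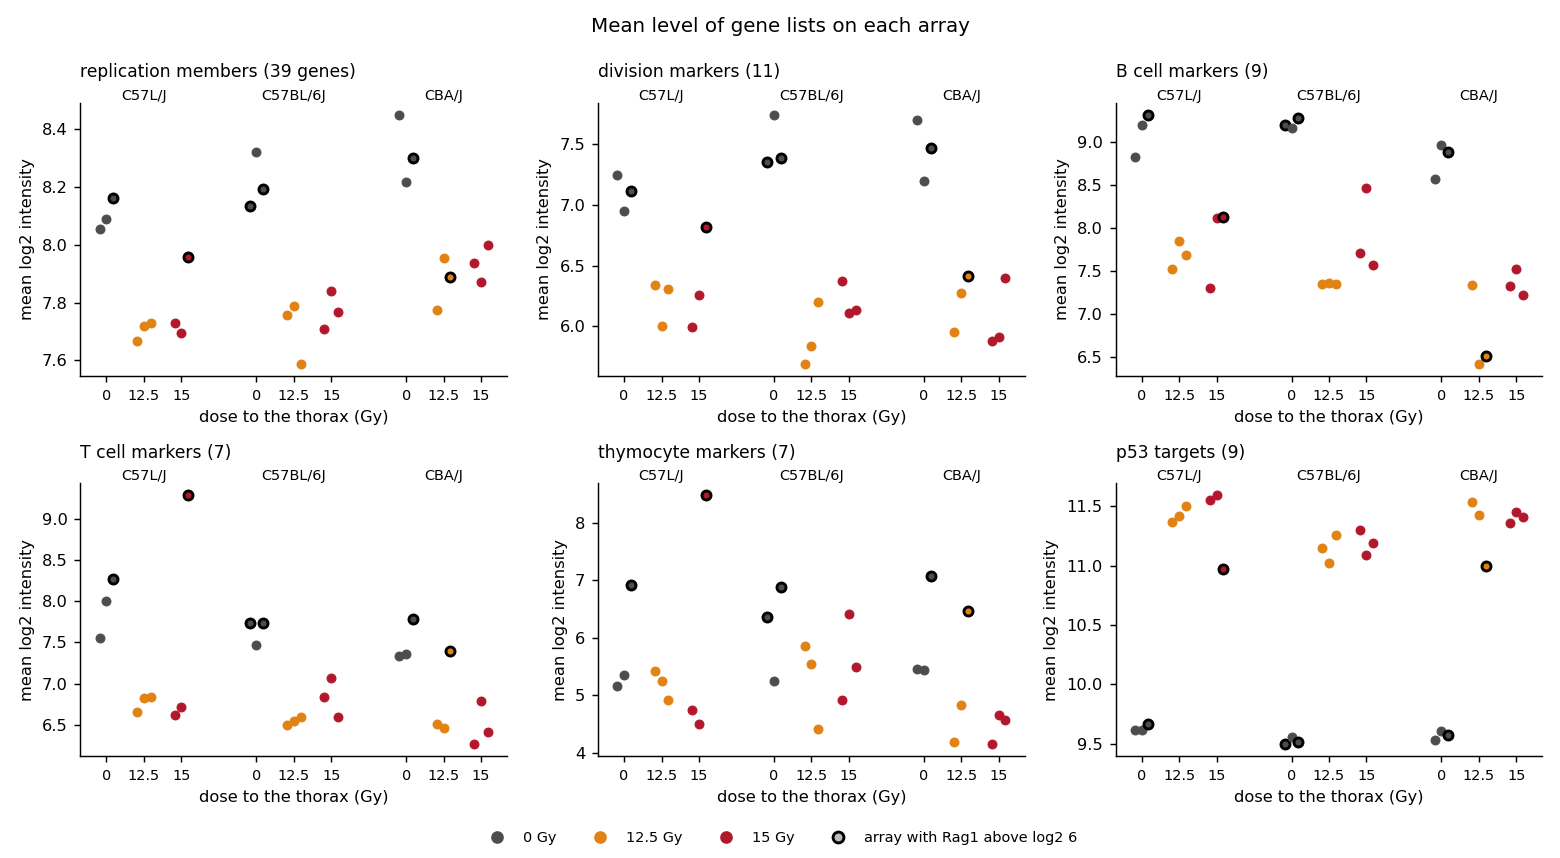
Mean log2 intensity of 6 gene lists on each of the 27 arrays, by strain and dose in Gy; black rings mark the 6 arrays with Rag1 above 6. The replication members and division markers are lower on every irradiated array than on every sham array, and the C57L/J array at 15 Gy with the highest thymocyte mean also has the highest replication mean of its strain's irradiated arrays. That array also carried muscle transcripts.

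Without the 6 arrays with Rag1 above 6, C57BL/6J kept 1 sham array, replicate 2. It was the highest sham array of its strain for Rrm2 (9.17) and Mcm3 (9.83), and the lowest for Pola1 (7.49). The median change of the members was then -0.43, with Rrm2 at -1.48, Cdt1 at -1.03, Mcm3 at -0.90 and Pola1 at 0.35. Cdc6, Ccne1, Ccne2 and Rfc4, called over all arrays, missed the threshold in that set. Leaving out only the 2 irradiated high-Rag1 arrays, an alternative chosen after the data were seen, gave 19 lower and 1 higher at an adjusted p under 0.05. Leaving out the 9 arrays with muscle transcripts gave a median change of -0.36, with Rrm2 at -1.51. That set held 1 array each in CBA/J at 0 and 12.5 Gy and in C57BL/6J at 12.5 and 15 Gy. Mcm4, Mcm6, Cdc6, Pold1, Fen1, E2f1, Ccne1, Ccne2 and Rfc4, called over all arrays, missed the threshold there. Pole and Rfc5 were lower there and not without the high-Rag1 arrays. Whether these shifts came from muscle transcripts or from single arrays was not tested. Of the 21 members called over all arrays, 16 passed whichever single array was left out, and the exceptions were Cdc6, Rfc4, Pold1, E2f1 and Ccne1.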

How the data were processed

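The authors measured lung RNA on 27 Affymetrix mouse expression arrays and deposited linear intensity values for 45101 probe sets, made with Affymetrix Expression Console 1.1 per the submitters' notes (the sources used here do not give the summary algorithm). The 2% trimmed mean was 500 on every array, so no further normalization was applied. Probe sets with 1 gene symbol (34958) were kept and values under 1 were set to 1 before log2. Of all values on an array, 14.0% to 19.3% were under 32, and array-to-array correlation ran from 0.8905 to 0.9588. Groups came from the labels. Linear models were fitted with limma 3.58.1 (lmFit, then eBayes; R 4.3.3) over all 18194 genes, and were tested on simulated data. p-values measure the spread between 3 mice per group. Promoter sequences are those of RefSeq (GRCm38.p6). Members, lists and tests were chosen with earlier results of these data known. Text names the 10 members with the largest change, those against the majority at unadjusted p under 0.05, those past a threshold in the other tests, and the brightest and dimmest. Alternatives were quantile normalization, median-centring, a floor of 32, a filter at mean intensity 100, the most variable or mean probe set, an intensity trend, array weights, arrays left out, a muscle covariate, the replicate block, all 27 arrays and the methods' random variance t test. Figures used matplotlib 3.10.9.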

Additional observations from a re-analysis of the deposited data

How the results depend on the processing

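Over the 3 strains, 21 members passed an adjusted p of 0.05. Under the alternatives 17 to 24 did, other than with the most variable probe set (9) and without muscle arrays. Fewer passed without muscle arrays, a set that left 1 array in some groups of CBA/J and C57BL/6J. With the most variable probe set Cdt1 (0.78), Chaf1b (0.53) and E2f1 (0.18) changed sign, as did Chaf1b with the mean of probe sets (0.058). These probe sets are dimmer by construction. Counts at p under 0.01 within a strain were less steady. For 12.5 Gy in C57L/J (9) they were 5 with median-centring, 3 with the most variable probe set, 1 with the muscle covariate and 4 without thymocyte arrays. For 15 Gy in C57L/J (5) they were 0 with the most variable probe set, 2 with the mean of probe sets, 3 with the intensity trend, 3 without thymocyte arrays, and 8 without muscle arrays, with the muscle covariate or without the irradiated thymocyte arrays, the last chosen after seeing the data. For 12.5 Gy in C57BL/6J (9) they were 2 with the most variable probe set, 4 with the mean of probe sets and 3 without muscle arrays. For 15 Gy in C57BL/6J (7) they were 3 with the most variable probe set, 2 without muscle arrays, and 4 with the mean of probe sets, the muscle covariate or without thymocyte arrays. For 12.5 Gy in CBA/J (5) they were 3 with median-centring, 2 with the most variable probe set or without thymocyte arrays, and 10 with all 27 arrays in the fit. The set without muscle arrays left 1 array a group there and was not run. In C57BL/6J its counts at 12.5 and 15 Gy each rest on 1 irradiated array. For 15 Gy in CBA/J (7) they were 4 with the mean of probe sets, without muscle arrays or with the muscle covariate, and 3 without thymocyte arrays. For 15 against 12.5 Gy (1) the count was 0 with quantile normalization, median-centring, the most variable probe set, the intensity trend and both thymocyte exclusions, 3 with the mean of probe sets and 2 without muscle arrays. For strain by irradiation (0) it was 1 with the intensity trend and 2 without muscle or without thymocyte arrays. For sham lung (2) it was 1 with median-centring or the muscle covariate and 0 without muscle arrays. The cause was not tested for any of these.

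Leaving out 1 array at a time gave 18 to 23 over the 3 strains, 4 to 6 and 0 to 8 in C57L/J at 12.5 and 15 Gy, 5 to 8 and 4 to 6 in C57BL/6J, 3 to 5 and 2 to 4 in CBA/J, 0 to 1 for 15 against 12.5 Gy, 0 to 1 for strain by irradiation and 0 to 2 for sham lung. The lowest counts came without any 0 Gy replicate of C57L/J (4 at 12.5 Gy), C57L/J 0 Gy replicate 2 (0 at 15 Gy), C57BL/6J 0 Gy replicate 2 (5 and 4), CBA/J 0 Gy replicate 1 or 12.5 Gy replicate 1 or 2 (3), and CBA/J 15 Gy replicate 2 (2).

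A pairing of the samples by replicate number was not shown. With each gene's group mean subtracted, same-numbered arrays all correlated over 0.1 in 0 of 9 group pairs (-0.07 to 0.25). With the replicate block the counts were 20 over the 3 strains, 4 and 0 in C57L/J, 3 in CBA/J at 15 Gy and 1 for sham lung, and the others stayed within 1.5 times. Under the block Rfc4 (adjusted p = 0.065) and Cdc6 (adjusted p = 0.0518) missed the threshold and Rfc5 passed it (adjusted p = 0.0459). Dim probe sets (Tk1, Tyms, Esco2) limit the precision of a log2 change, as do 3 arrays a group.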
